A study of Mus musculus with 4 samples.

Results

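Non-classical monocytes are the patrolling monocytes that crawl along vessel walls, and in the mouse they carry little Ly6C. They develop largely from classical Ly6C-high monocytes, depend on the nuclear receptor Nr4a1, and express the fractalkine receptor Cx3cr1. Conversion is accompanied by loss of the marrow-exit receptor Ccr2 and of Ly6c2, and by gain of surface proteins such as Spn (CD43) and Itgal (LFA-1 alpha chain). Here they were described in single-cell RNA-seq of bone marrow, as the cells that held at least 3 UMIs (unique molecular identifiers, each a counted RNA molecule) of Ace, Treml4, Adgre4 and Eno3 together. Such cells also had to hold at most 2 UMIs of C1qa, C1qb and C1qc, at most 1 of F13a1 and Vcan, none of Cd3e and Cd79a, and under 5% of their UMIs in the neutrophil genes S100a8 and S100a9. Members were thus chosen by their measured UMIs of these genes. The gate found 1188 members among 31457 kept cells, those with no fewer than 500 and no more than 4000 genes detected and mitochondrial UMIs of 15% or less, of 36942 barcodes in all.

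The marrow came from femurs and tibias of 12-month-old C57/B6 mice after red cell lysis, and each genotype gave 1 library. DKO mice lacked the formin mDia1 and the microRNA miR-146a and kept Il6 (mDia1-/-, miR146a-/-, IL6+/+). TKO mice lacked Il6 as well (mDia1-/-, miR146a-/-, IL6-/-), IL6 KO mice lacked Il6 alone (mDia1+/+, miR146a+/+, IL6-/-), and TWT mice were wild type at all 3 loci. The deletions are constitutive, so every cell of a mouse carries them, and how many mice were pooled for each library is unknown here. With 1 library per genotype no difference between genotypes could be tested: values are given with exact 95% intervals that cover counting error only, not variation between mice, and "higher" and "lower" refer to these libraries.

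The 4 libraries held 8423 to 10866 barcodes and 61292684 to 85145074 UMIs. Members had a median of 3957 UMIs per cell in DKO, 2904 in TKO, 3370 in IL6 KO and 3732 in TWT, and their summed profiles held 4834682, 346841, 203993 and 147958 UMIs, so the DKO profile was the most precise and the TWT profile the least. Diaph1, the gene of mDia1, stood at 20.1 CPM (CPM scales each summed profile to the same total UMIs) in DKO and 20.2 CPM in TKO members, against 363 CPM in IL6 KO and 243 CPM in TWT members. Il6 gave 1, 3, 4 and 0 UMIs in DKO, TKO, IL6 KO and TWT members, and since the 3' tags may lie outside the deleted part this count checks nothing about the Il6 labels. Xist, the RNA that coats an inactive X chromosome, had 205 UMIs (1005 CPM) in IL6 KO members and none in the members of the other 3 libraries, and the labels used here give no sex, so for IL6 KO sex and genotype cannot be told apart. The libraries shared 19 to 36 cell barcodes in pairs, and 1 shared barcode was a member in both DKO and TKO.

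DKO marrow held the most non-classical monocytes by share. They made up 997 of 9627 kept cells in DKO (10.4%, interval 9.76 to 10.98%), 101 of 7560 in TKO (1.34%, 1.09 to 1.62%), 55 of 7476 in IL6 KO (0.736%, 0.555 to 0.957%) and 35 of 6794 in TWT (0.515%, 0.359 to 0.716%). The DKO share was 20.1 times the TWT share (14.4 to 29.0) and 7.75 times the TKO share (6.31 to 9.61). In TKO marrow the share was 2.59 times that in TWT (1.75 to 3.93), while for IL6 KO the ratio of 1.43 had an interval that included 1 (0.918 to 2.25). When every cell was first thinned to 1500 UMIs the ratios to TWT were 25.6, 4.64 and 2.57 for DKO, TKO and IL6 KO, with 13 members left in TWT.

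**Figure D1:**
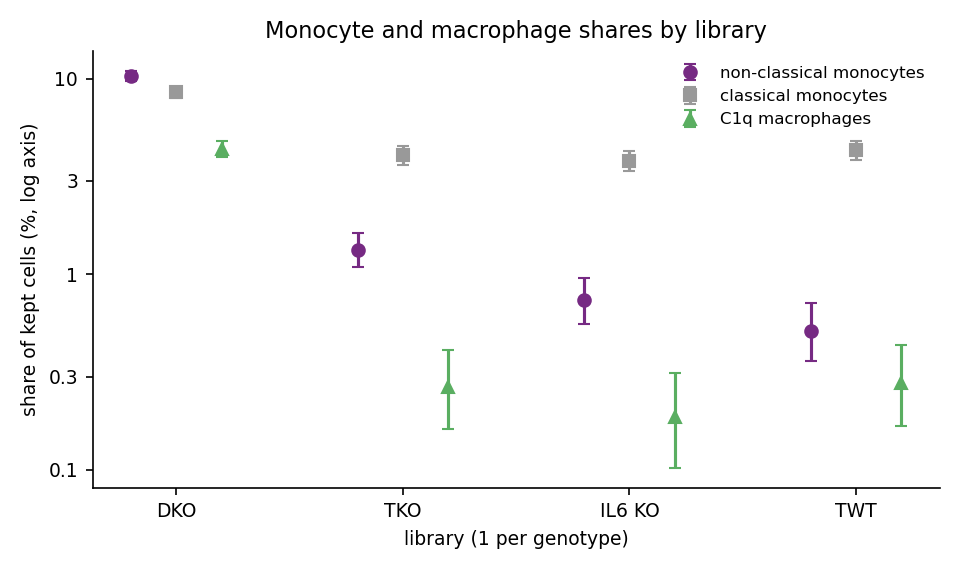
Share of kept cells (%, log axis) that fell into the non-classical monocyte, classical monocyte and C1q macrophage gates in each library, with exact binomial 95% intervals. Non-classical monocytes stood at 10.4% in DKO and between 0.515% and 1.34% in the other 3 libraries, whereas classical monocytes ranged only from 3.799% to 8.52%.

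Classical monocytes, gated in the same cells by at least 3 UMIs of F13a1 and Vcan and at most 1 of the 4 gate genes, differed less. Their limits for the C1q genes, Cd3e, Cd79a, S100a8 and S100a9 were those of the members. Cells with any UMI of Mki67 or Top2a, genes of dividing cells, were also left out, a condition not set for members. Such non-dividing classical monocytes were 8.52% of kept cells in DKO, 4.05% in TKO, 3.799% in IL6 KO and 4.30% in TWT, a DKO to TWT ratio of 1.98 (1.73 to 2.27). Non-classical cells thus made up 54.9% of both monocyte gates together in DKO (52.6 to 57.2%), 24.8% in TKO (20.7 to 29.3%), 16.2% in IL6 KO (12.5 to 20.6%) and 10.7% in TWT (7.57 to 14.6%). C1q macrophages were 4.36%, 0.265%, 0.187% and 0.280% of kept cells in the same order, so the DKO share of these cells was also high, at 15.6 times that in TWT (9.87 to 26.2). The gate's other conditions removed more cells in DKO than elsewhere: 1874, 126, 73 and 50 cells had 3 gate UMIs in DKO, TKO, IL6 KO and TWT, of which 997, 101, 55 and 35 remained as members.

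The 4 genes of the gate chose the cells, so their levels describe the members and test nothing. Ace, the angiotensin-converting enzyme, lies at chr11:105967945-105989964 (GRCm38, plus strand), and stood at 335 CPM in DKO, 603 in TKO, 451 in IL6 KO and 487 CPM in TWT members. Treml4, a receptor of the TREM family at chr17:48264295-48275360, had 445, 355, 378 and 237 CPM in that order. Adgre4, an adhesion G-protein-coupled receptor at chr17:55749984-55853662, had 411, 493, 721 and 568 CPM, and Eno3, the muscle form of enolase at chr11:70657202-70662513, had 358, 735, 353 and 446 CPM. Classical monocytes, which could hold at most 1 UMI of these genes by their own gate, had at most 13.5 CPM of any of them. At the edge of the gate, the 162 DKO cells with exactly 3 gate UMIs had 302 CPM of Cx3cr1, 291 of Spn and 453 of Ccr2, and the 195 DKO cells with 2 gate UMIs that met every other condition had 292, 252 and 620 CPM. In DKO the levels of these genes thus changed gradually across the threshold of 3. Elsewhere few cells lay at the edge and some levels stepped. In TKO the 14 cells with 2 gate UMIs and the 15 with 3 had 43.5 and 262 CPM of Nr4a1, and 769 and 105 CPM of Ly6c2. Their Spn was similar, at 116 and 122 CPM.

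Of the genes outside the gate, Nr4a1, Cx3cr1, Spn and Itgal were higher in members than in classical monocytes, and Ly6c2 was lower. Nr4a1 (chr15:101254269-101274795) stood at 262 CPM in DKO members (1267 UMIs), 294 CPM in TKO, 226 CPM in IL6 KO (46 UMIs) and 135 CPM in TWT (20 UMIs). The same libraries' classical monocytes had 23.8, 16.8, 11.8 and 18.04 CPM of Nr4a1, so members were above them in each of the 4 libraries. Cx3cr1 (chr9:119901616-120069879) had 340, 513, 534 and 568 CPM in members of DKO, TKO, IL6 KO and TWT, against 110, 228, 226 and 230 CPM in classical monocytes. For Spn the members' levels were 413, 384, 211 and 338 CPM and those of classical monocytes 26.2 to 48.2 CPM. Itgal, which pairs with Itgb2 to bind ICAM-1, had 760, 920, 1034 and 1007 CPM in members and 97.3 to 175 CPM in classical monocytes. Ly6c2 ran the other way, with 52.3, 72.1, 93.1 and 149 CPM in members and 999 to 1503 CPM in classical monocytes.

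Further identity genes were counted in the members of each library. Fcgr4, an activating Fc receptor for IgG, had 612, 510, 588 and 399 CPM in DKO, TKO, IL6 KO and TWT members, and Gngt2, a G-protein gamma subunit, had 2218, 2258, 1529 and 1778 CPM. Cd300e, an activating receptor of myeloid cells, had 213, 190, 78.4 and 162 CPM in members and at most 1.09 CPM in classical monocytes. The fatty acid carriers Fabp4 (232, 441, 338 and 352 CPM) and Cd36 (146, 118, 191 and 176 CPM) had at most 4.12 CPM in classical monocytes of any library. Apoc2, an activator of lipoprotein lipase listed among the identity genes, had 7 UMIs in DKO members and none in the other 3 libraries. Hes1, a Notch target on the same list, had 286, 25, 5 and 7 UMIs in DKO, TKO, IL6 KO and TWT members. In thinned IL6 KO cells it was seen in 3.77% of members, 6.39% of B cells and 0 of 284 classical monocytes. Whether B cells express Hes1 themselves was not tested, so their share may not be a background for it. The 5 fixed markers summed to 1792, 2258, 2309 and 1994 CPM in members and 160 to 266 CPM in classical monocytes, a contrast largely set by both gates, since Ace, Treml4 and Adgre4 are gate genes.

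Markers of other cells were also counted in members. The 7 classical monocyte markers, with F13a1 and Vcan that the gate limited, summed to 3146, 1147, 1103 and 1271 CPM in DKO, TKO, IL6 KO and TWT members. In DKO this was above the 1792 CPM of the members' 5 non-classical markers, and in the other libraries below their sum. Classical monocytes had 8697 to 15493 CPM of the classical markers. Among 9 macrophage markers, which include the C1q genes that the gate limited, the sum was 208, 326, 279 and 318 CPM in DKO, TKO, IL6 KO and TWT members, against 8815 to 15114 CPM in C1q macrophages. Cd163, the haemoglobin scavenger receptor, was at 0 UMIs in members of all libraries, and Mrc1, the mannose receptor, had 2 UMIs in TKO and none elsewhere. Neutrophil markers, S100a8 and S100a9 included, summed to 4216 CPM in DKO members and 2200, 2775 and 2068 CPM in TKO, IL6 KO and TWT members, more than the members' non-classical markers in DKO, IL6 KO and TWT. In classical monocytes they summed to 6613, 1671, 2342 and 1771 CPM, and their part in the differences between libraries was not tested. The 3 erythroid markers summed to 59.2, 839, 191 and 13673 CPM, and 1 TWT member with at least 5% globin UMIs accounted for most of the TWT value. Plasmacytoid dendritic cell markers summed to 35.99, 104, 431 and 115 CPM, with 2 IL6 KO members that held at least 3 UMIs of them. Members with markers of any other lineage numbered 11, 1, 4 and 2, though no DKO or TKO member reached 5% globin or 3 plasmacytoid UMIs. Without the members that held markers of other lineages the DKO to TWT share ratio was 21.1 (14.9 to 30.8), an alternative chosen after seeing the data.

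Next, the summed members' profiles were compared between genotypes. A gene counted as measured at 50 CPM in either library with at least 30 UMIs together, and as higher or lower at a 2-fold ratio on the scale of CPM plus 1. DKO members differed most from TWT: 282 of 3422 measured genes were higher (8.24%) and 310 lower (9.06%). For TKO against TWT, 98 of 2595 genes were higher (3.78%) and 36 lower (1.39%), and for IL6 KO against TWT, 55 of 1860 were higher (2.96%) and 45 lower (2.42%). Between DKO and TKO, 168 of 3345 genes were higher in DKO (5.02%) and 178 lower (5.32%). These counts move with depth, which sets how many genes can be measured and how far low counts scatter: with all profiles thinned to the 147958 UMIs of TWT they were 199 for DKO against TWT, 56 for TKO against TWT, 81 for IL6 KO against TWT and 189 for DKO against TKO. In DKO members 91 genes were at least 2-fold higher and 68 at least 2-fold lower than in each of the other 3 libraries. The percentages of all measured genes given above are the background for the counts of listed genes below.

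Identity genes were called between DKO and TWT about as often as other genes. Of 25 measured identity genes 3 were higher and 1 was lower in DKO, 4 in all, beside 17.3% of all measured genes called in either direction, with a median log2 ratio of 0.29 beside -0.05 over all measured genes. The higher ones were Cebpb, a bZIP factor on which Ly6C-low monocytes depend, Klf2, a zinc-finger factor of quiescence and vascular homeostasis, and Dusp16, a MAP kinase phosphatase. Cebpb had 3593 CPM in DKO members, 1917 in TKO, 2329 in IL6 KO and 1582 CPM in TWT, and a DKO to TWT ratio of 2.27 (1.997 to 2.60). With at least 5 gate UMIs per member the log2 ratios of Cebpb and Klf2 were 0.95 and 0.92, below 2-fold, and Klf2 was also below it, at 0.98, when the CPM of single cells were averaged. Klf2 had 1858, 1251, 980 and 885 CPM, and Dusp16 had 211, 98.0, 132 and 81.1 CPM. Itgax (CD11c) was the lower one, with 19.2, 40.4, 39.2 and 54.1 CPM from 93, 14, 8 and 8 UMIs. Nr4a1 was 1.94 times as high in DKO as in TWT (1.25 to 3.19), within the 2-fold limit, and against TKO its ratio was 0.891 (0.728 to 1.10).

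**Figure D2:**
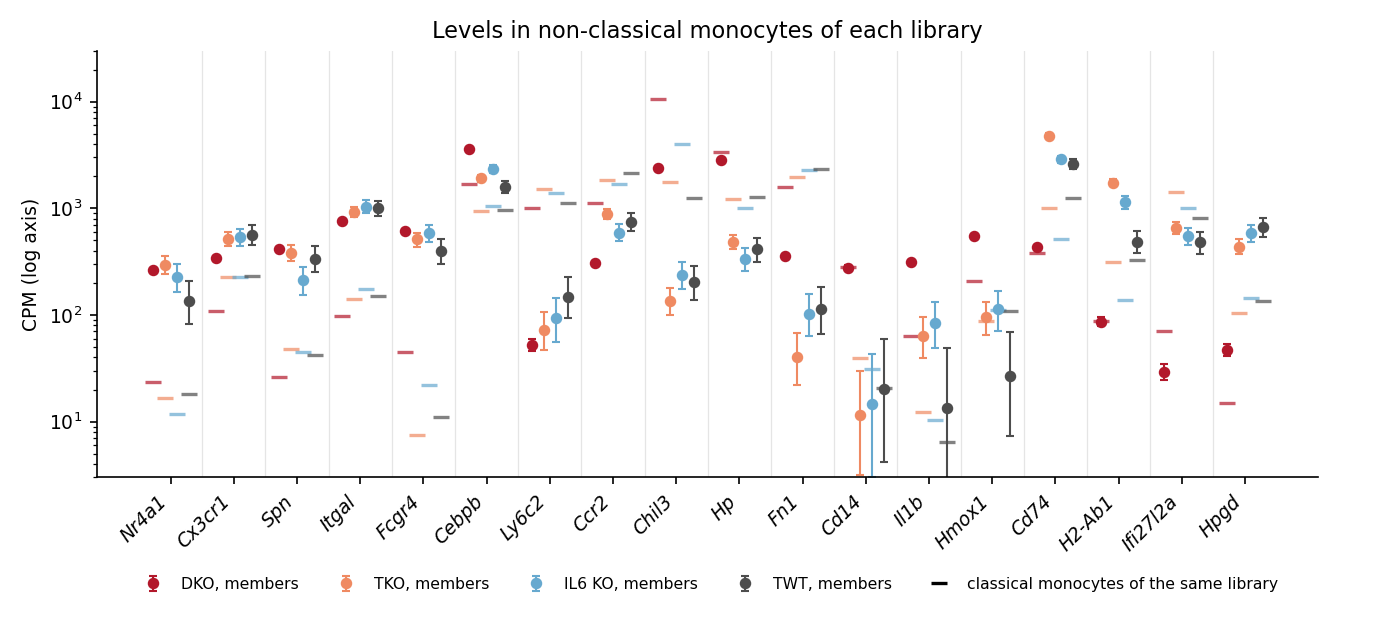
Levels (CPM, log axis) of 18 genes in the summed non-classical monocytes of each library, as points with exact Poisson 95% intervals, beside classical monocytes of the same library, as horizontal bars of the same colour. Nr4a1, Spn and Itgal were above the bars in all 4 libraries, whereas Chil3, Hp, Cd14 and Il1b were higher in DKO members, and Cd74, H2-Ab1, Ifi27l2a and Hpgd lower there, than in the other 3 libraries.

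The classical monocyte list split in DKO members. Of its 11 measured genes 4 were higher than in TWT and 4 lower, with a median log2 ratio of -0.12. Chil3, a chitinase-like secreted protein, had 2394 CPM in DKO members, 136 in TKO, 235 in IL6 KO and 203 CPM in TWT. Haptoglobin (Hp), which binds free haemoglobin, had 2827, 487, 333 and 412 CPM, and Fn1, fibronectin, had 357, 40.4, 103 and 115 CPM. Cd14, the co-receptor for lipopolysaccharide, had 278 CPM in DKO members and 11.5, 14.7 and 20.3 CPM in TKO, IL6 KO and TWT, from 1342, 4, 3 and 3 UMIs, a DKO to TWT ratio of 13.7 (4.67 to 66.5). The 4 lower genes were Ccr2, Ly6c2, Irf8, a transcription factor of monocyte and dendritic cell fate, and Ms4a4c, a membrane protein of the Ms4a family. Ccr2 had 307 CPM in DKO members and 882, 593 and 750 CPM in TKO, IL6 KO and TWT members, and Irf8 had 123, 257, 574 and 284 CPM. For Ly6c2, 68.2% of the TWT UMIs lay in 1 cell, and with at least 5 gate UMIs per member its log2 ratio was -0.17, so that call was lost. Lyz2, Plac8 and Mgst1 lay within 2-fold, with Lyz2 at 17684, 16189, 19559 and 17938 CPM.

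Because free RNA gives UMIs to every droplet, the shares of members with a UMI were set beside those of B cells. These were gated by Cd79a and Cd79b, without Cd3e and with under 5% of UMIs in S100a8 and S100a9. They are not a clean background in DKO: Cd300e, thinned as below, was seen in 6.46% of DKO B cells and 0 of 817 DKO classical monocytes. Whether other cells entered the B cell gate was not tested. Each cell was thinned to 1500 UMIs, which left 974 DKO, 99 TKO, 53 IL6 KO and 34 TWT members. Hp was then seen in 87.1% of DKO members (84.8 to 89.1%), 42.4% of TKO, 45.3% of IL6 KO and 38.2% of TWT members, against 15.02%, 6.24%, 7.04% and 5.55% of B cells. Chil3 was seen in 60.7%, 15.2%, 24.5% and 14.7% of members and in 33.1%, 8.99%, 13.6% and 9.13% of B cells. Unthinned, the members' shares were 94.2%, 58.4%, 52.7% and 62.9% for Hp and 76.9%, 27.7%, 43.6% and 31.4% for Chil3. Free RNA, read from S100a8 and S100a9 in B cells, was 2.70% in DKO and 1.06%, 1.20% and 1.13% in TKO, IL6 KO and TWT. The B cell gate itself limited these genes, so the estimate is a rough one, and the part of free RNA in single genes was not tested. With free RNA subtracted, 593 genes differed between DKO and TWT in place of 592. Saa3, an acute-phase serum amyloid chosen here after its values were seen, was seen in 14.9% of DKO members and 8.75% of DKO B cells, but in 73.4% of DKO classical monocytes.

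**Figure D3:**
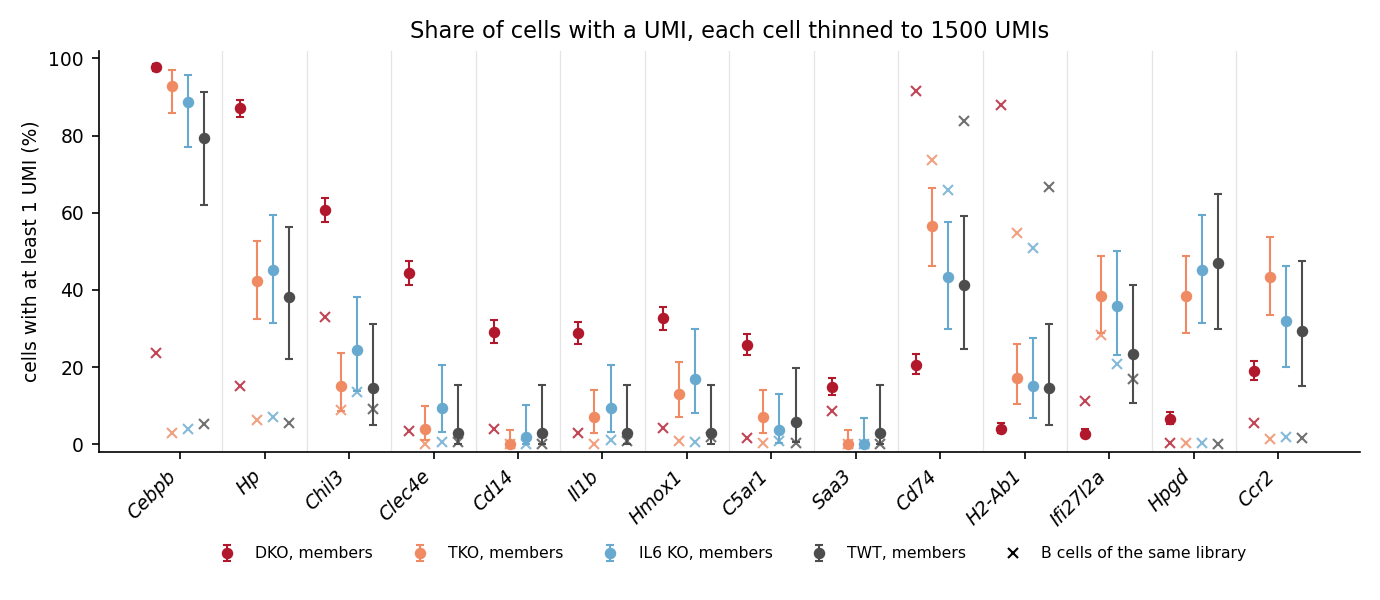
Share of cells (%) with at least 1 UMI of 14 genes after each cell was thinned to 1500 UMIs, for non-classical monocytes (points with exact binomial 95% intervals) and for B cells of the same library (crosses). Hp, Chil3, Clec4e, Cd14 and Il1b were seen in more DKO members than in members of any other library, and each DKO point lies above its B cell cross. For Cd74 and H2-Ab1, which B cells express themselves, and for Ifi27l2a in DKO, the crosses lie above the points.

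Surface receptors were among the genes highest in DKO members. Among 18 measured inhibitory and activating receptors 6 were higher in DKO than in TWT and 1 lower, with a median log2 ratio of 0.64, and none of 12 passed 2-fold for TKO against TWT. The rise was not particular to members: in DKO classical monocytes 6 of 17 of these receptors were higher than in TWT and none lower. Clec4e (Mincle), a C-type lectin for mycobacterial lipid and dead cells, had 481 CPM in DKO members (2324 UMIs) and 37.5, 39.2 and 47.3 CPM in TKO, IL6 KO and TWT (13, 8 and 7 UMIs), so DKO was 10.2 times TWT (4.92 to 25.3). Clec4d, its partner lectin, had 678 UMIs in DKO members, 0 in TKO, 2 in IL6 KO and 0 in TWT, which is at least 6.92-fold above the 20.3 CPM that 3 counts would make in TWT. Trem1, an amplifier of myeloid inflammation, had 597 UMIs in DKO and 1 in each other library, a ratio to TWT of 18.3 with an interval of 3.27 to 723. Siglece, an inhibitory sialic acid receptor, had 477 UMIs in 314 DKO cells and none in members of the other libraries, at least 4.87-fold above the TWT floor, and Cd300lf had 322, 2, 0 and 0 UMIs. Thinned, Siglece was seen in 14.4% of DKO members and 3.04% of DKO B cells. In classical monocytes Siglece was seen in 8.20% of DKO and 3.4% of TWT cells, and Clec4e in 32.4% and 4.11%.

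The other genes that were highest against TWT and at least 2-fold higher against each library mostly had no UMI in the 35 TWT cells, so their ratios are lower bounds. Fkbp5, a glucocorticoid-induced co-chaperone, had 136 CPM in DKO members, at least 6.71-fold above the floor. Lrg1, a secreted leucine-rich glycoprotein, also had 136 CPM, and Ccnd2, cyclin D2, had 110 CPM, at least 6.71-fold and 5.41-fold. Bounds for Pira2, Nfil3, Ikbke, Cd38, Ankrd37 and Gpr84 ranged from 2.52-fold (Gpr84, a receptor for medium-chain fatty acids) to 3.63-fold (Pira2, an activating Ig-like receptor). In TKO members, Fkbp5 and Lrg1 had 3 UMIs each, Nfil3 and Ikbke 4 each, Pira2 11 and Ankrd37 1, while Ccnd2, Cd38 and Gpr84 had none.

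Several inflammatory signal genes were also higher in DKO. Il1b, the pro-form of interleukin-1 beta, had 312 CPM in DKO members, 63.4 in TKO, 83.3 in IL6 KO and 13.5 CPM in TWT, where 2 UMIs were counted, and the DKO to TWT ratio was 23.1 (6.37 to 191). Against TKO the DKO level was 4.91 times as high (3.23 to 7.87). It was the 1 chemokine or cytokine of 6 measured that was higher, while Ccl5 and Cxcl16 were lower, and 98.3% of Ccl5 and 77.8% of Cxcl16 UMIs in TWT came from 1 cell. C5ar1, the receptor for complement fragment C5a, had 220, 31.7, 44.1 and 27.0 CPM, and F10, coagulation factor X, had 353, 49.0, 53.9 and 27.0 CPM. Socs3, a feedback inhibitor of IL-6 and gp130 signaling, had 212 CPM in DKO members and 20.2, 9.80 and 20.3 CPM in TKO, IL6 KO and TWT, and was seen in 24.2% of thinned DKO members, 9.89% of DKO B cells and 1.89% to 2.94% of members elsewhere. Of 11 measured genes of interleukin-6 signaling 2 were higher, Socs3 and the AP-1 factor Junb.

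Toll-like receptor and NF-kB genes were higher in 4 of 16 and lower in 1, with a median log2 ratio of 0.24. Over all measured genes 8.24% were higher and 9.06% lower in DKO than in TWT. Nfkbia, the inhibitor of NF-kB, had 758, 398, 343 and 243 CPM in DKO, TKO, IL6 KO and TWT members, and Tlr2, a receptor for bacterial lipoproteins, had 83.8, 31.7, 29.4 and 33.8 CPM. Immediate early and dissociation stress genes, which also respond to tissue handling, were higher in 5 of 11 and lower in none, with Jun at 319, 274, 142 and 87.9 CPM. They were higher in 4 of 10 for TKO against TWT and in 2 of 9 for IL6 KO against TWT, beside 3.78% and 2.96% of all measured genes. The part of handling in the difference was not tested.

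Metabolic genes moved in parts. Glycolysis genes were higher in 7 of 14 and lower in 1 in DKO against TWT, with a median log2 ratio of 0.86, and higher in 4 of 14 and lower in none against TKO. Ldha, which makes lactate, had 364, 182, 123 and 87.9 CPM in DKO, TKO, IL6 KO and TWT members, Slc16a3, a lactate exporter, had 260, 107, 88.2 and 54.1 CPM, and Pgam1 had 335, 153, 132 and 81.1 CPM. Hk2, hexokinase 2, was the lower one, at 45.3, 63.4, 68.6 and 115 CPM. None of 28 nuclear genes of oxidative phosphorylation and none of 21 proteasome genes passed 2-fold in either direction, and of 12 mitochondrially encoded genes only mt-Nd3 did, which was lower. Hmox1, heme oxygenase, which breaks down heme, had 548 CPM in DKO members and 95.1, 113 and 27.0 CPM in TKO, IL6 KO and TWT, and Fth1, ferritin heavy chain, had 7113, 2742, 2559 and 2487 CPM. Both belong to the iron list, in which 4 of 7 measured genes were higher and 1 lower. The lower one, Hpgd, stood on that list but degrades prostaglandins and does not handle iron, so no iron or heme gene was called lower. Hpgd had 46.9 CPM in DKO members and 438, 583 and 669 CPM in TKO, IL6 KO and TWT, a DKO to TWT ratio of 0.0702 (0.0552 to 0.0898). It was seen in 6.67% of thinned DKO members and in 38.4%, 45.3% and 47.1% of the others.

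MHC class II genes, which present peptides to CD4+ T cells, were lower in DKO members in 6 of 7 measured genes and higher in none, with a median log2 ratio of -2.48. In TKO against TWT 3 of 7 were higher and none lower, with a median of 0.88. Cd74, the invariant chain, had 434 CPM in DKO members, 4806 in TKO, 2878 in IL6 KO and 2616 CPM in TWT, a DKO to TKO ratio of 0.0903 (0.0846 to 0.0963). H2-Ab1, a class II beta chain, had 86.7, 1741, 1137 and 487 CPM, and H2-Aa, the alpha chain, had 95.8, 1597, 735 and 588 CPM. Single cells weighed heavily in the smaller libraries: the top cell held 15.04% of the H2-Ab1 UMIs in DKO members, 17.7% in TKO, 79.7% in IL6 KO and 43.1% in TWT. Members with at least 5 UMIs of H2-Aa, H2-Ab1 and H2-Eb1 together, a limit chosen after seeing the values, numbered 19 of 997 in DKO (1.91%, 1.15 to 2.96%), 14 of 101 in TKO (13.9%, 7.79 to 22.2%), 5 of 55 in IL6 KO (9.09%, 3.02 to 20.0%) and 5 of 35 in TWT (14.3%, 4.81 to 30.3%). These cells held 81.2%, 99.2%, 97.3% and 95.8% of the members' class II UMIs.

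By the gate the class II-rich members held the gate genes too, at 1133, 1729, 1369 and 1016 CPM in DKO, TKO, IL6 KO and TWT, against 1563, 2306, 1991 and 1940 CPM in the remaining members. Their Ccr2 was higher than in the remaining members in each library, with 550, 1411, 1301 and 954 CPM in the class II-rich cells and 299, 743, 475 and 693 CPM in the rest. Flt3, a receptor of dendritic cells and their precursors, stood at 0, 13.8, 68.5 and 61.6 CPM in the class II-rich cells and at most 11.4 CPM in the rest. The class II-rich cells held 152632, 72284, 29208 and 32483 UMIs in all, so each of their Flt3 levels rests on fewer UMIs than the floor of 3. The conventional dendritic cell markers together summed to 1.45, 11.5, 88.2 and 81.1 CPM over all members, and their part in the class II levels was not tested. In the remaining members Cd74 was also lower in DKO, with 179 CPM in DKO and 805, 601 and 866 CPM in TKO, IL6 KO and TWT.

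Interferon-stimulated genes were lower as well. In DKO against TWT 8 of 9 measured genes of the type I interferon response were lower and none higher, with a median log2 ratio of -1.58, and against TKO 6 of 8 were lower. None of 8 passed 2-fold for TKO against TWT and none of 5 for IL6 KO against TWT. Ifi27l2a, an interferon-induced protein, had 29.2 CPM in DKO members and 657, 549 and 480 CPM in TKO, IL6 KO and TWT, and in classical monocytes it had 71.0, 1434, 996.5 and 818 CPM. Bst2 (tetherin), which holds budding virions at the cell surface, had 35.6, 104, 211 and 108 CPM. Slfn5, a further interferon-induced gene among the 8 lowest, had 4.76, 75.0, 73.5 and 189 CPM. Of the interferon-gamma list only 3 genes were measured, of which Gbp2 and Irf1 were lower, and among class I presentation genes 2 of 11 were lower, the peptide transporter subunit Tap1 and the immunoproteasome subunit Psmb9.

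**Figure D4:**
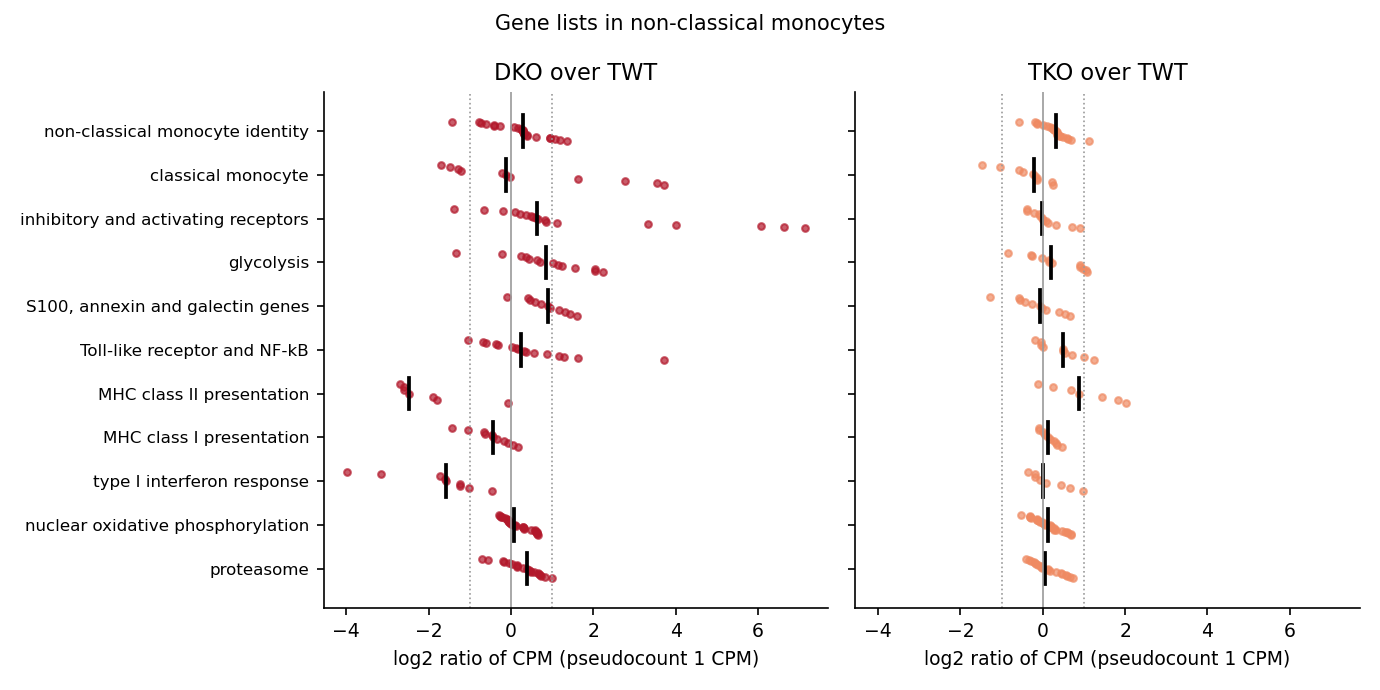
Log2 ratios of CPM (pseudocount 1 CPM) in non-classical monocytes for the measured genes of 11 lists, as points with the list's median as a vertical bar, for DKO over TWT on the left and TKO over TWT on the right. Dotted lines mark 2-fold. For DKO the MHC class II and type I interferon medians stood at -2.48 and -1.58 and those of glycolysis and the S100, annexin and galectin genes at 0.86 and 0.90, while for TKO the class II median was 0.88 and the interferon median near 0.

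The same 2 lists were lower in DKO classical monocytes, with 6 of 7 class II and 7 of 8 interferon genes below TWT and medians of -1.70 and -1.55. There 7 of 14 glycolysis and 4 of 11 immediate early genes were higher than in TWT and none lower. Over all 3060 genes measured in classical monocytes 101 were higher and 305 lower. Thinned, Cd14 was seen in 27.8% of DKO and 3.4% of TWT classical monocytes, and Socs3 in 12.5% and 1.37%. Across all genes, 2755 were measured in both gates for DKO against TWT, 153 were called in both, and 1 of these ran in opposite directions. The gates come from the same libraries, so these are not separate samples.

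miR-146a, which DKO and TKO mice lack, represses innate immune signaling by pairing its seed with sites in the 3' UTRs of Traf6 and Irak1. It is not counted by 3' tags of polyadenylated RNA, and its mature form is shown with the seed (bases 2 to 8) in capitals, as annotated by RefSeq at chr11:43374435-43374456 on the minus strand of GRCm38.p6.
mmu-miR-146a-5p: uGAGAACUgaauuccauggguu
Its paralogue miR-146b, at chr19:46342790-46342811, was not deleted and carries the same seed.
mmu-miR-146b-5p: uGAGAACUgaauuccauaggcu
The match to this seed is the 7-base motif AGTTCTC, searched on the transcript strand of the longest 3' UTR of each gene in GENCODE M21. It was present in 2328 of 20998 genes (11.1%). Traf6, the ubiquitin ligase downstream of Toll-like and IL-1 receptors, holds 4 matches and Irak1, the kinase that recruits it, holds 2. The first matches of Traf6 lie at chr2:101697944-101697969 and chr2:101698008-101698033 on the plus strand, and that of Irak1 at chrX:74015390-74015415 on the minus strand, with the motif in capitals.
Traf6 match 1: accgctctggtgttgAGTTCTCattt
Traf6 match 2: tccctggaaggcttaAGTTCTCaagt
Irak1 match 1: agactcagaggtcaaAGTTCTCatgc

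Traf6 and Irak1 are named here as the described targets, with their values known. Irak1 had 59.2 CPM in DKO members, 92.3 in TKO, 58.8 in IL6 KO and 94.6 CPM in TWT, within 2-fold in each comparison with TWT, and Traf6 was too low to be measured, with 77, 4, 4 and 3 UMIs. Of 7 measured genes on the list of described miR-146a targets none was higher in DKO than in TWT. Relb, an NF-kB subunit, was lower and had 65.6, 25.9, 53.9 and 135 CPM, but 80.0% of its TWT UMIs came from 1 cell, and against TKO it was at least 2-fold higher in DKO. Relb does not hold the motif in the 3' UTR searched. Over all genes, the median log2 ratio of DKO against TWT was -0.19 for 396 measured genes with the motif and -0.04 for 2983 without it, and for TKO against TWT it was 0.03 for 308 and 0.07 for 2252.

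Within the DKO members, other genes were set beside the 4 gate genes, which had already chosen the members, so this order tests nothing. DKO members were ranked by the share of their UMIs in the 4 gate genes and divided into tertiles of 333, 332 and 332 cells, a description that shares depth with the gate, since the median UMIs per cell were 5649, 3670 and 3534 from the lower to the upper tertile. Across these tertiles Spn had 253, 455 and 610 CPM, Itgal 467, 807 and 1153 CPM, and Nr4a1 159, 322 and 351 CPM. Ccr2 ran the other way with 564, 182 and 56.6 CPM, as did Fn1 with 658, 188 and 91.0 CPM, Saa3 with 1837, 505 and 116 CPM and Chil3 with 3603, 1929 and 1080 CPM. Hp (3147, 2635 and 2559 CPM), Clec4e (461, 510 and 477 CPM), Il1b (295, 351 and 293 CPM) and Cx3cr1 (348, 323 and 346 CPM) differed by less than 1.5-fold over the tertiles. In TKO members, with tertiles of 34, 34 and 33 cells, Ccr2 had 1469, 640 and 317 CPM and Spn 186, 420 and 623 CPM, while Chil3 had 129, 201 and 71.5 CPM. Tertile by tertile Ccr2 was lower in DKO than in TKO, but the tertiles were not matched between the libraries for their levels of the gate genes.

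**Figure D5:**
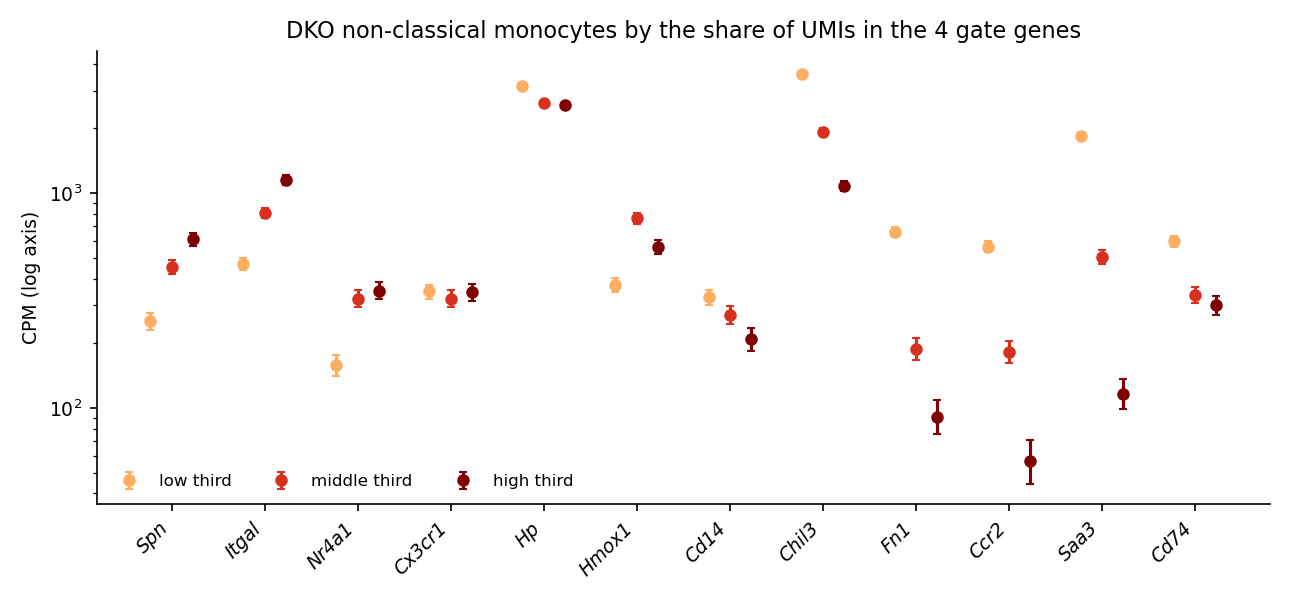
Levels (CPM, log axis) of 12 genes in DKO non-classical monocytes divided into tertiles by the share of their UMIs in the 4 gate genes, with exact Poisson 95% intervals. Spn and Itgal were higher and Ccr2, Fn1 and Saa3 lower towards the upper tertile, whereas Hp and Cx3cr1 stayed within 1.5-fold.

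The remaining lists are given beside the 8.24% of all measured genes that were higher and the 9.06% that were lower in DKO than in TWT. For adhesion, Fc receptor, lysosomal and actin genes the counts lie near those shares and are not a result about the lists. Of the S100, annexin and galectin genes 4 of 11 were higher in DKO than in TWT and none lower, among them Anxa1, an anti-inflammatory annexin (247, 54.8, 88.2 and 81.1 CPM in DKO, TKO, IL6 KO and TWT), and S100a11 (854, 314, 466 and 318 CPM). Myeloid transcription factors were higher in 4 of 17 and lower in 2, with Id2, an inhibitor of E proteins, at 634, 25.9, 226 and 108 CPM and Tcf4, an E protein of plasmacytoid dendritic cells, at 53.2, 118, 265 and 155 CPM. In TWT 68.8% of Id2 UMIs came from 1 cell. Adhesion genes were higher in 2 of 15 and lower in 2, with Icam1 at 63.7, 20.2, 39.2 and 20.3 CPM and Pecam1 at 70.1, 17.3, 29.4 and 33.8 CPM. Fc receptors and adaptors were lower in 2 of 10, the high-affinity receptor Fcgr1 and the inhibitory Fcgr2b. Lysosomal genes were higher in 3 of 20, led by the cathepsins Ctsl and Ctsd, and lipid genes were lower in 3 of 15, with Fabp5, Pparg and Lpl, of which 75.0% of the TWT Fabp5 UMIs came from 1 cell.

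Smaller counts filled the other lists for DKO against TWT. Survival and apoptosis genes were higher in 1 of 14 (Bbc3, 59.8, 57.7, 93.1 and 13.5 CPM in DKO, TKO, IL6 KO and TWT, from 2 UMIs in TWT) and lower in 1 (Bid). Complement genes were higher in 2 of 7, C5ar1 and properdin (Cfp), and lower in 1, Itgax. Of 6 measured macrophage genes Hmox1 alone was higher and none was lower. Ifitm and Ms4a genes were higher in 3 of 9 and lower in 2, with Ms4a8a at 111, 8.65, 19.6 and 20.3 CPM. Coagulation and vascular genes were higher in 2 of 4, F10 and the urokinase receptor Plaur, and lower in 1, Thbd, the thrombin receptor thrombomodulin (70.5, 144, 103 and 176 CPM). Of 28 actin and formin genes 2 were higher, the capping protein Capg and vimentin (Vim), and 1 was lower, Diaph1 itself. None of 3 measured cell cycle genes passed 2-fold.

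TKO and IL6 KO members each differed from TWT in few genes, and single cells set some of them. The 5 highest genes in TKO against TWT were Car2, H2-Q6, Tfeb, Arl1 and H2-Q7. Car2, carbonic anhydrase 2, had 130 CPM in TKO and 13.5 CPM in TWT members, with 97.8% of the TKO UMIs in 1 cell. H2-Q7, a non-classical class I gene with near-identical neighbours such as H2-Q6, had 484 CPM in TKO and 108 CPM in TWT members, and the split of reads between the copies is uncertain. Tfeb, a regulator of lysosomal genes, had 107 CPM in TKO and 20.3 CPM in TWT. For IL6 KO against TWT the highest genes were Xist, Ckb, St3gal5, Gramd4 and Soat1, with Ckb, brain-type creatine kinase, at 196 CPM in IL6 KO and 40.6 CPM in TWT. The lowest genes in both comparisons, and the lowest in DKO against TWT, were the globins Hba-a1, Hba-a2, Hbb-bs and Hbb-bt, of which Hbb-bs had 43.4, 597, 147 and 9739 CPM in DKO, TKO, IL6 KO and TWT, and 97.7% of the TWT UMIs lay in 1 cell. After the globins, Diaph1 was next for TKO and Fabp5 for IL6 KO. Ighm and Iglc1, immunoglobulin chains of B cells, were among the 8 lowest in DKO, with Ighm at 17.0, 450, 490 and 561 CPM.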

How the data were processed

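Single-cell RNA-seq libraries (10x Chromium 3' v3) from 4 genotypes were analysed from the deposited UMI count matrices, which the authors made with Cell Ranger on mm10 (version 3.0.2 per the file headers) and followed with Seurat 4, with no normalization of the deposited counts. Samples were grouped by the genotype labels. Python 3.11.15 with scipy 1.17.1 and scanpy 1.11.5 was used. UMIs of the members were summed per library and given as CPM over 31053 genes, and ratios used a pseudocount of 1 CPM. The 13 genes of the gate were left out of the calls. Intervals were exact (Clopper-Pearson for shares, Poisson for sums, conditional binomial for ratios, 95%) and cover counting error only. The floor was 3 counts per library. Doublets were scored with Scrublet per library: the automatic threshold marked 0.00920% of DKO barcodes and was replaced there by the mean threshold of the other 3 libraries, 0.253. Members called doublets numbered 2, 1, 0 and 0 in DKO, TKO, IL6 KO and TWT, and were kept.

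The members and the 30 gene lists (498 genes, of which 2 are not analysed here) were chosen with earlier results of these data known. Named genes were the gate genes, Nr4a1, Cx3cr1 and the identity and classical monocyte lists, the 12 highest and 8 lowest genes of DKO against TWT that also passed 2-fold against TKO and IL6 KO, the 5 highest and 5 lowest of TKO and of IL6 KO against TWT, the 2 to 4 largest ratios in each other list, and Diaph1, Il6 and Xist. No other column of per-sample values was left unused. Some genes of the lists are not reported here by name. Alternatives covered the gate, depth, doublets, scaling, filters, the pseudocount and free RNA.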

Additional observations from a re-analysis of the deposited data

Results flagged for a closer look

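Results called in both gates whose direction differed between non-classical and classical monocytes of the same 2 libraries are given here. The difference itself was not tested, since each genotype had 1 library. In DKO against TWT, Srsf1, a splicing factor, had a log2 ratio of 1.86 in non-classical monocytes (51.7 CPM in DKO and 13.5 CPM in TWT) and -1.09 in classical monocytes (38.2 CPM in DKO and 82.3 CPM in TWT). The Srsf1 level in TWT non-classical monocytes was below the floor of 20.3 CPM, so its ratio there rests on very few UMIs. In IL6 KO against TWT, H2-Ab1 had a log2 ratio of 1.22 in non-classical monocytes (1137 CPM in IL6 KO and 487 CPM in TWT) and -1.25 in classical monocytes (139 CPM in IL6 KO and 331 CPM in TWT). In non-classical monocytes 79.7% of the H2-Ab1 UMIs of IL6 KO and 43.1% of those of TWT lay in 1 cell. Hbb-bt and Hba-a1 had log2 ratios of -5.77 and -6.80 in non-classical monocytes of IL6 KO against TWT and 1.21 and 1.09 in classical monocytes, and 97.9% and 97.6% of their TWT UMIs in non-classical monocytes lay in 1 cell.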

How the results depend on the processing

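Of 87 alternative values for share ratios and gene counts, 74 stayed within the interval or within 1.5 times the main count. The split of calls was less stable. For DKO against TWT, 282 genes were higher and 310 lower, but 303 and 263 with median-ratio scaling, 222 and 203 with a pseudocount of 10 CPM, 112 and 87 at equal UMIs and 2773 and 1697 without any minimum. For DKO against TKO, 168 were higher and 178 lower, but 200 and 143 with median-ratio scaling, so neither comparison had a fixed balance. With the gate applied to cells thinned to 1500 UMIs the share ratio was 4.64 for TKO and 2.57 for IL6 KO over TWT. Without any minimum, 4470 genes passed 2-fold for DKO, 3910 for TKO and 4258 for IL6 KO against TWT and 3194 for DKO against TKO. At equal UMIs the counts were 199 for DKO and 56 for TKO against TWT and 189 for DKO against TKO. When the counting interval itself had to lie beyond 2-fold, 112, 15 and 11 genes remained for DKO, TKO and IL6 KO against TWT and 130 for DKO against TKO. For 32 named genes, 341 of 352 alternative ratios lay within the main counting interval and none reversed. Of the 11 others, 8 came from requiring at least 5 gate UMIs, where Cebpb (0.95) and Ly6c2 (-0.17) no longer passed 2-fold. Klf2 stayed within its interval but was below 2-fold there (0.92). The 35 TWT members limit every comparison with TWT: a gene needs 3 UMIs, or 20.3 CPM, to exceed the floor, and 1 cell can set a level. No paired analysis was possible because each genotype had 1 library, and for the same reason no replicate could be left out.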
